A study of Mus musculus with 6 samples.

Results

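The genes of mitochondrial ribosomal proteins were followed in Raw264.7 macrophages with and without knockdown of *Etv5*. Members were all rows of the expression table whose symbol starts with Mrpl or Mrps and a number. The rule found 78 of 24786 genes, 49 with a symbol of the large subunit (Mrpl) and 29 with a symbol of the small subunit (Mrps). Raw264.7 is a mouse macrophage line established from an Abelson murine leukemia virus-induced tumor. The sample labels give the strain as C57BL/6, which was not checked against the origin of the line. The cells were infected with a lentivirus that carries a control short hairpin RNA (sh-NC, n = 3 libraries) or one against *Etv5* (sh-*Etv5*, n = 3 libraries), and polyadenylated RNA was sequenced. Both groups went through infection, and the methods describe selection with puromycin, an antibiotic that kills cells without the vector. The sources used here do not say which of 3 hairpins was sequenced, how long after infection the RNA was taken, or whether replicate libraries stem from independent infections. The n therefore counts libraries, and the p-values measure the spread between libraries, which may be technical.

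Mitochondria keep a small genome of their own, and its messages are translated inside the organelle by a dedicated ribosome. The proteins of this ribosome are encoded in the nucleus, made in the cytosol and imported. The large subunit holds the catalytic site where the peptide bond forms, and the small subunit holds the decoding site where messenger and transfer RNA meet. Some of the proteins descend from those of bacterial ribosomes, and others are found only in mitochondria. The proteins made by this ribosome are core subunits of the respiratory chain and of ATP synthase. *Etv5* encodes a transcription factor of the ETS family, which binds DNA around a GGAA core. GABP, another ETS-family factor, is known for its sites in promoters of nuclear genes for mitochondrial proteins.

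Values were RPKM, which divides reads by gene length and by the mapped reads of the library, so levels are per length. How reads of sequence shared between genes were counted is not given, and comparisons of levels between genes carry that limit. Changes were tested with limma on log2(RPKM + 1), and a gene was called where its adjusted p, computed over the 10738 genes that reached 1 RPKM in 3 or more libraries, was under 0.05. Fold changes are sh-*Etv5* minus sh-NC on that scale, which understates changes of low genes. *Etv5* itself was at 9.18, 9.89 and 9.39 RPKM in sh-NC and at 5.19, 4.91 and 5.28 RPKM in sh-*Etv5* (log2 fold change -0.78, SE 0.057, adjusted p = 2.74e-07). A large share of the transcriptome was called, 74.3% of the genes tested, 33.3% as higher and 41.0% as lower in sh-*Etv5*, with a median log2 fold change of -0.05. The summed RPKM of all genes was 4.37% higher in sh-*Etv5*. Read numbers cannot be recovered from RPKM, so the depth is unknown and no counting interval was given. In bulk RNA, fewer cells with a transcript and less transcript per cell cannot be told apart.

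All 78 members were annotated as protein-coding genes, lay on 17 chromosomes with at most 11 on any of them, and passed the filter on low values. After knockdown, 38 members were lower, 16 were higher and 24 were not called. Members were thus called in 69.2% of cases, against the 74.3% of all genes, with 48.7% lower (41.0% of all genes) and 20.5% higher (33.3% of all genes). The changes were small. The median log2 fold change of the members was -0.11, beside -0.05 for all genes tested. Without regard to sign, the median was 0.19 for members and 0.31 for all genes tested. A fall of at least 0.5 on the log2 scale was seen in 7 members, *Mrps6*, *Mrpl34*, *Mrpl18*, *Mrpl42*, *Mrpl36*, *Mrps21* and *Mrpl12*, where 15.0% of all genes fell that far. A rise of that size was seen in 1 member, *Mrpl27*, where 15.9% of all genes rose that far. All values of a group lay above all values of the other for 53 members (67.9%), and for 76.4% of all genes. The largest called changes of members lay well inside the range of all genes, which ran from -4.61 to 8.14.

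The balance between falls and rises depended on scaling. With every library rescaled to the same sum of RPKM, 43 members were lower and 10 were higher, and the share of falls among called members went from 70.4% to 81.1%. Over all called genes that share went from 55.2% to 61.2%. None of the called members turned its direction under any scaling tried, and the same 10 rises were among the 16. Of the 54 calls, 43 held without any 1 of the libraries, and 13 members had an adjusted p between 0.01 and 0.05.

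Both subunits contained falls and rises. Over all genes tested, 41.0% were lower, 33.3% higher and 74.3% called in either direction. Of the 49 Mrpl genes, 22 (44.9%) were lower, 11 (22.4%) higher and 16 not called. Their median log2 fold change was -0.09, or -0.055 without sh-NC replicate 3. Of the 29 Mrps genes, 16 (55.2%) were lower, 5 (17.2%) higher and 8 not called, with a median of -0.13. The higher count for Mrps was 3 without sh-NC replicate 3 and 3 without sh-*Etv5* replicate 1. Symbols do not match structure throughout. *Mrps30* and *Mrps18a* encode proteins that structures place in the large subunit, and *Mrps36* encodes a component now assigned to the 2-oxoglutarate dehydrogenase complex. Grouped by structure, 22 of 51 large-subunit genes (43.1%) were lower and 11 (21.6%) higher (median -0.07). For the small subunit, 16 of 26 genes (61.5%) were lower and 5 (19.2%) higher (median -0.17). Whether the medians of the subunits differ was not tested, since genes are not replicates.

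**Figure D1:**
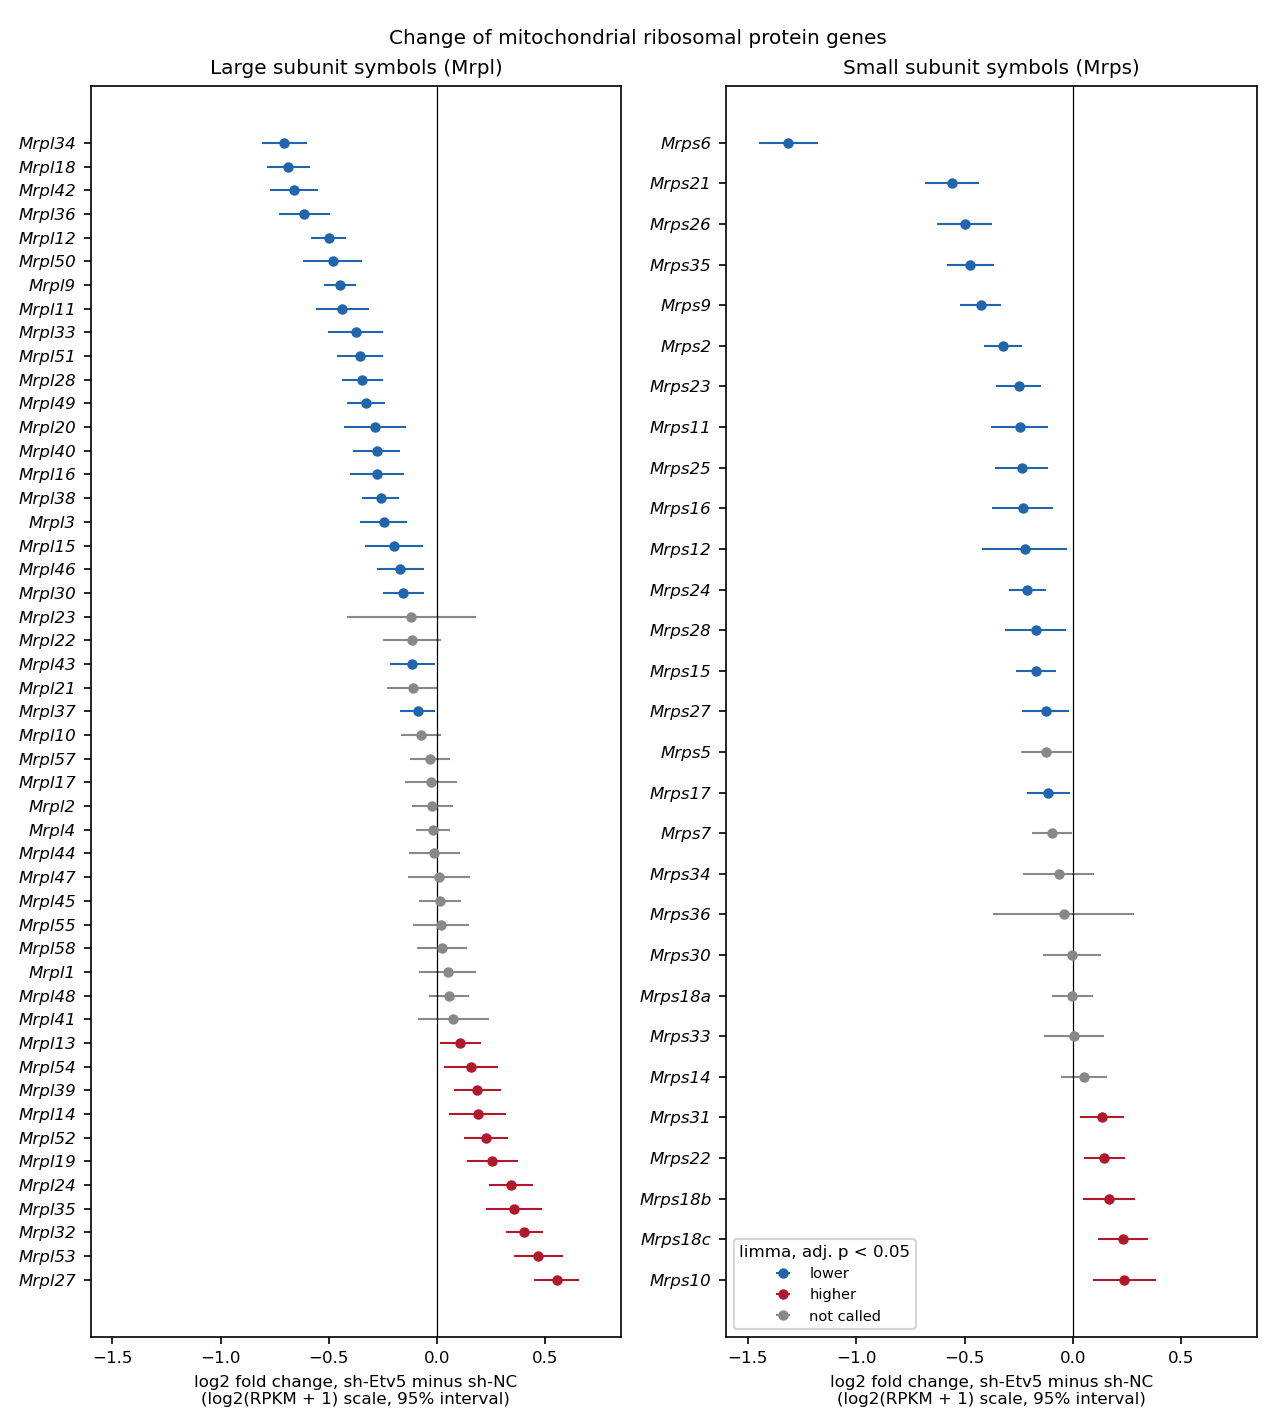
Log2 fold change (x axis, sh-*Etv5* minus sh-NC, log2(RPKM + 1) scale) of each Mrpl gene (left) and Mrps gene (right), with 95% intervals from limma, blue for lower, red for higher and grey for not called. *Mrps6* stands at -1.31, far to the left of the other Mrps genes, of which the next is *Mrps21* at -0.56, and *Mrpl27* at 0.55 is the largest rise.

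The summed level of each subunit gave 1 value per library. Mrpl genes summed to 1783, 1782 and 1790 RPKM in sh-NC and to 1607, 1579 and 1685 RPKM in sh-*Etv5*. Mrps genes summed to 1052, 1044 and 1045 RPKM in sh-NC and to 882, 857 and 914 RPKM in sh-*Etv5*. In both subunits every sh-*Etv5* library was below every sh-NC library, and the mean sum fell by 9.04% for Mrpl and fell by 15.6% for Mrps. The ratio of the Mrps sum to the Mrpl sum was 0.590, 0.586 and 0.584 in sh-NC and 0.549, 0.543 and 0.542 in sh-*Etv5*, with no overlap. Much of that shift came from a single gene. Without *Mrps6* the ratio was 0.541, 0.537 and 0.536 in sh-NC and 0.528, 0.523 and 0.519 in sh-*Etv5*, a difference of -2.69% in place of -7.16%, still without overlap. All members together made up between 0.737% and 0.885% of the summed RPKM of a library.

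**Figure D2:**
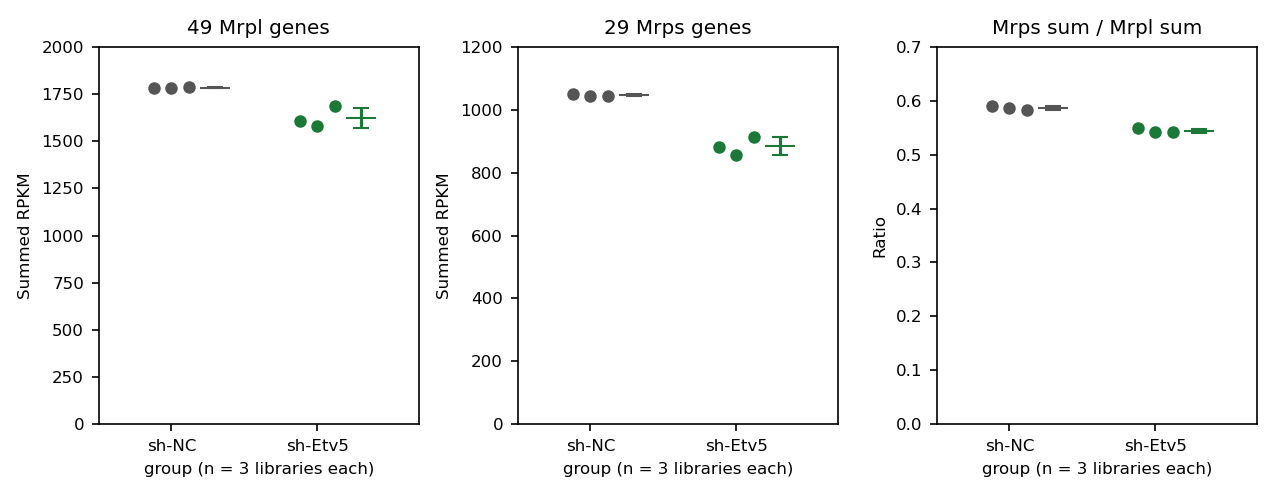
Summed RPKM of the Mrpl genes (left) and the Mrps genes (middle) and their ratio (right) in each library, with points for libraries and bars for the mean and SD of 3 libraries per group. The sh-*Etv5* libraries lie below the sh-NC libraries in each panel, between 1579 and 1685 RPKM for Mrpl and between 857 and 914 RPKM for Mrps.

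*Mrps6* showed the largest change of all members. It encodes bS6m, a protein of the small-subunit platform with a bacterial counterpart, and lies on the plus strand of chromosome 16 (GRCm38, chr16:92058270-92112227). Its level was 87.2, 88.2 and 85.9 RPKM in sh-NC and 33.9, 31.3 and 38.5 RPKM in sh-*Etv5*, a fall to well under the control range in each library (log2 fold change -1.31, SE 0.061, adjusted p = 6.9e-09). It was the fifth most abundant member in sh-NC and ranked 29 in sh-*Etv5*. *Mrps6* shares exonic bases on the same strand with *Slc5a3*, the gene of a myo-inositol transporter. The shared stretch is 159 bases, 10.4% of the annotated exons of *Mrps6*. An overlap of 305 bases (19.9%) exists with the same-strand gene *Gm49711*, which had no row in the table, and 17.3% of the 50-base stretches of *Mrps6* occur in these genes, so the size of its fall is uncertain. *Slc5a3* was at 8.65 ± 0.155 RPKM in sh-NC and at 2.08 ± 0.031 RPKM in sh-*Etv5* (SD, n = 3), a log2 fold change of -1.65. The part of shared reads in the *Mrps6* value was not tested.

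Among the other small-subunit genes, *Mrps21* encodes bS21m, another platform protein. It was at 95.8, 96.9 and 92.1 RPKM in sh-NC and at 60.4, 61.3 and 71.3 RPKM in sh-*Etv5* (log2 fold change -0.56, SE 0.057, adjusted p = 4.66e-06). *Mrps26* and *Mrps35* encode proteins without a bacterial counterpart. *Mrps26*, the second most abundant member in sh-NC, was at 112, 109 and 101 RPKM in sh-NC and at 71.7, 73.1 and 83.0 RPKM after knockdown (log2 fold change -0.50, adjusted p = 1.3e-05). *Mrps35* was at 26.9, 27.4 and 27.0 RPKM in sh-NC and at 18.0, 19.3 and 20.4 RPKM after knockdown (log2 fold change -0.47, adjusted p = 5.08e-06). For each of these genes all sh-*Etv5* libraries lay below all sh-NC libraries.

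The largest falls of the large subunit were of similar size to each other. *Mrpl34* encodes bL34m, a short protein that binds ribosomal RNA, and was at 61.6, 63.8 and 61.4 RPKM in sh-NC and at 38.7, 39.6 and 35.1 RPKM in sh-*Etv5* (log2 fold change -0.71, SE 0.047, adjusted p = 1.27e-07). *Mrpl18* encodes uL18m of the central protuberance, whose bacterial counterpart binds 5S ribosomal RNA. Its values were 77.4, 75.4 and 76.3 RPKM in sh-NC and 46.0, 45.0 and 50.3 RPKM in sh-*Etv5* (log2 fold change -0.69, adjusted p = 9.62e-08). *Mrpl42*, a gene of a mitochondria-specific protein, went from 49.1, 54.5 and 50.1 RPKM to 30.6, 31.8 and 33.8 RPKM (log2 fold change -0.66, adjusted p = 4.01e-07). *Mrpl36*, which encodes the small protein bL36m, went from 41.9, 38.0 and 43.8 RPKM to 25.4, 27.6 and 26.7 RPKM (log2 fold change -0.61, adjusted p = 1.38e-06). *Mrpl50*, also mitochondria-specific, was lower at a smaller level, from 15.3, 14.3 and 13.9 RPKM to 9.39, 9.98 and 10.9 RPKM (log2 fold change -0.48, adjusted p = 2.79e-05). The groups did not overlap for any of these 5 genes.

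*Mrpl12* encodes bL12m, the stalk protein that contacts translation factors, and it was the most abundant member in sh-NC. It was at 146, 144 and 145 RPKM in sh-NC and at 104, 97.1 and 106 RPKM in sh-*Etv5* (log2 fold change -0.50, SE 0.037, adjusted p = 3.33e-07). *Mrpl52*, which encodes a mitochondria-specific protein, moved the other way, from 95.8, 101 and 102 RPKM to 111, 115 and 125 RPKM (log2 fold change 0.23, adjusted p = 0.000929). The order of this pair was therefore exchanged, with *Mrpl12* above *Mrpl52* in every sh-NC library and below it in every sh-*Etv5* library. In sh-NC the next levels were those of *Mrps26* (108 ± 5.97 RPKM, SD, n = 3), *Mrpl52* (99.6 ± 3.27 RPKM) and *Mrps21* (94.9 ± 2.55 RPKM), and the libraries of neighbours in this order overlapped. The lowest member in both groups was *Mrpl1*, a gene of the large-subunit protein uL1m, at 5.59 ± 0.244 RPKM in sh-NC and 5.81 ± 0.253 RPKM in sh-*Etv5*.

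**Figure D3:**
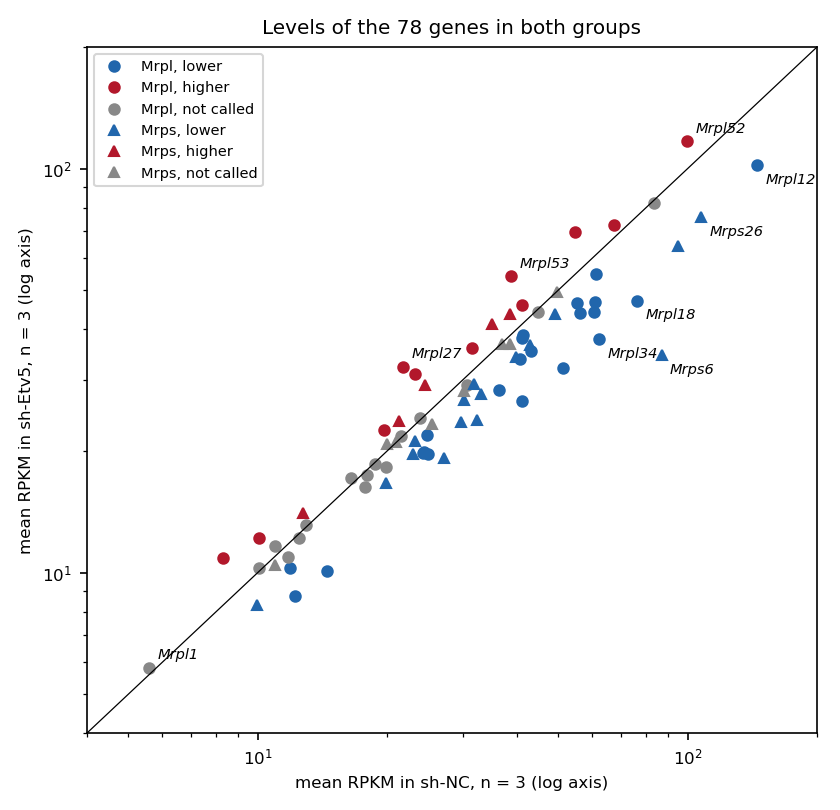
Mean RPKM in sh-NC (x axis) and in sh-*Etv5* (y axis), n = 3 libraries each, on log axes for the 78 genes, circles for Mrpl, triangles for Mrps, coloured by call, with the line of equal levels. Levels span from 5.59 RPKM for *Mrpl1* to 145 RPKM for *Mrpl12* in sh-NC, and *Mrps6* lies furthest below the line.

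Of the 16 rises, 11 were in Mrpl genes. *Mrpl27* encodes bL27m, whose bacterial counterpart reaches towards the catalytic site, and lies on chromosome 11 (chr11:94653767-94660089, plus strand). It was at 23.0, 21.6 and 20.7 RPKM in sh-NC and at 33.0, 31.1 and 32.9 RPKM in sh-*Etv5* (log2 fold change 0.55, SE 0.048, adjusted p = 1.16e-06). *Mrpl53*, a gene of a mitochondria-specific protein (chr6:83109040-83109939, plus strand), was at 40.6, 36.3 and 39.8 RPKM in sh-NC and at 56.4, 51.2 and 54.6 RPKM in sh-*Etv5* (log2 fold change 0.47, SE 0.051, adjusted p = 7.81e-06). The annotated exons of *Mrpl53* lie to 88.0% within exons of the same-strand gene *Gm42688*, which had no row in the table. *Mrpl32* encodes bL32m, which is cut by a protease of the inner membrane before it joins the ribosome. It rose from 22.9, 23.2 and 23.7 RPKM to 30.7, 32.0 and 30.5 RPKM (log2 fold change 0.40, adjusted p = 3.14e-06). For these genes every sh-*Etv5* library was above every sh-NC library.

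Smaller rises followed. *Mrpl24*, the gene of a protein near the peptide exit, was at 54.7 ± 2.38 RPKM in sh-NC and at 69.6 ± 3.62 RPKM in sh-*Etv5* (SD, n = 3, log2 fold change 0.34, adjusted p = 4.72e-05). *Mrpl35* was at 8.28 ± 0.378 and 10.9 ± 0.654 RPKM (log2 fold change 0.35, adjusted p = 0.000215), and *Mrpl19* was at 10.1 ± 0.495 and 12.2 ± 0.377 RPKM (log2 fold change 0.26, adjusted p = 0.0011). Both encode proteins with bacterial counterparts. Among small-subunit genes the largest rise was that of *Mrps10*, which encodes the head protein uS10m, from 24.6 ± 1.63 to 29.2 ± 2.69 RPKM (log2 fold change 0.24, adjusted p = 0.00724). That call was lost without a filter on low values (adjusted p = 0.0555). *Mrpl14*, whose protein uL14m is the docking site of the assembly factor MALSU1, was at 31.5 ± 2.68 RPKM in sh-NC and at 36.0 ± 1.82 RPKM in sh-*Etv5* (log2 fold change 0.19, adjusted p = 0.0154). Its groups overlapped, and it was not called without sh-NC replicate 2 (adjusted p = 0.0686), without sh-*Etv5* replicate 1 (0.0548), without a filter (0.0795) or with libraries rescaled to the same sum (0.0588).

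**Figure D4:**
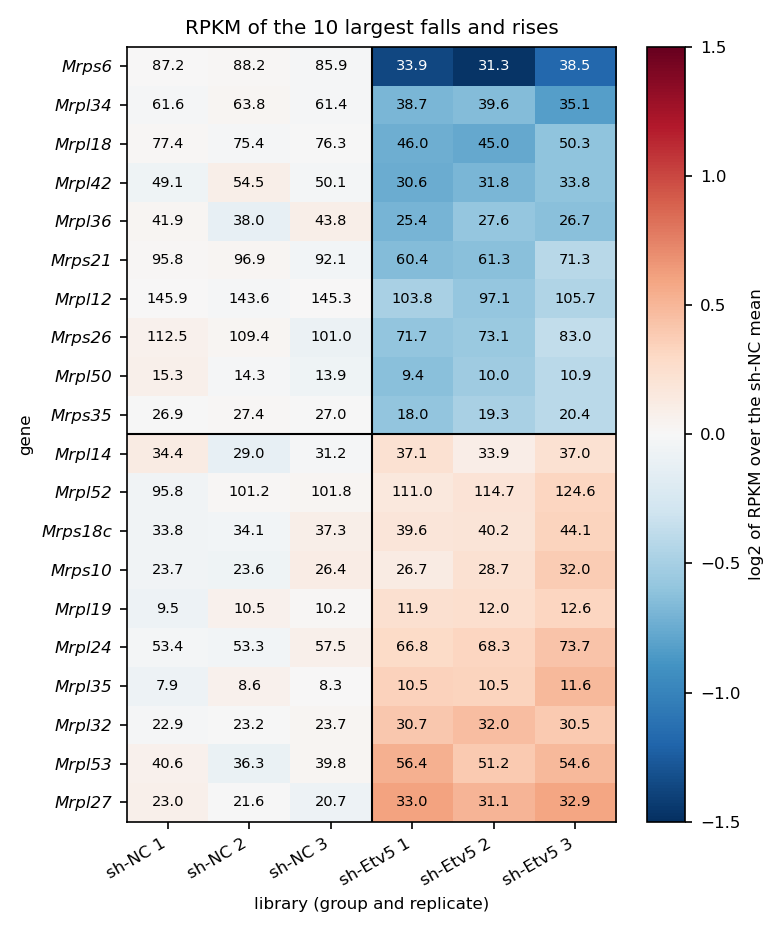
RPKM (printed numbers) of the 10 members with the largest falls and the 10 with the largest rises in each of the 6 libraries, coloured by the log2 ratio to the sh-NC mean. Rows above the line are lower in each sh-*Etv5* library than in each sh-NC library, and among the rises only *Mrpl14* has overlapping groups (up to 34.4 RPKM in sh-NC and from 33.9 RPKM in sh-*Etv5*).

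The 3 mouse genes of the S18 family encode related proteins that take different places in the ribosome. *Mrps18c* encodes the version at the position of bacterial S18 on the platform. It was at 33.8, 34.1 and 37.3 RPKM in sh-NC and at 39.6, 40.2 and 44.1 RPKM in sh-*Etv5* (log2 fold change 0.23, adjusted p = 0.00198), with no overlap. *Mrps18b*, also a small-subunit gene, was at 38.7 ± 2.31 and 43.6 ± 2.64 RPKM (SD, n = 3), with overlapping groups and a log2 fold change of 0.17 (adjusted p = 0.0166). It was not called without sh-NC replicate 1 (adjusted p = 0.0582), without sh-NC replicate 3 (0.069), without sh-*Etv5* replicate 1 (0.0722), without a filter (0.0747) or with libraries rescaled to the same sum (0.0843). *Mrps18a*, whose protein sits in the large subunit, was at 49.6 ± 1.34 and 49.5 ± 2.33 RPKM (log2 fold change -0.00, 95% interval -0.10 to 0.09). The differences between these 3 changes were not tested. Of the annotated exons of *Mrps18b*, 30.5% overlap *Gm16279* on the opposite strand. Of those of *Mrps18c*, 23.2% overlap *Gm43511* on the same strand. Neither partner had a row in the table, so the sizes of both rises are uncertain.

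The other members chosen for their role were not called. *Mrpl58* encodes a large-subunit protein that is also a peptidyl-tRNA hydrolase and can release stalled chains. It was at 9.99, 9.96 and 10.3 RPKM in sh-NC and at 10.2 ± 0.531 RPKM in sh-*Etv5* (log2 fold change 0.02, 95% interval -0.09 to 0.14). *Mrps30* was at 37.0 ± 3.41 and 36.8 ± 1.49 RPKM (log2 fold change -0.00, interval -0.14 to 0.13). *Mrps36* varied widely among the control libraries, at 11.9, 13.0 and 7.93 RPKM in sh-NC and 10.5 ± 1.48 RPKM in sh-*Etv5* (log2 fold change -0.04, interval -0.37 to 0.28). Without sh-NC replicate 3 it was called lower (log2 fold change -0.24, adjusted p = 0.0442). Of its annotated exonic sequence, 17.3% of 50-base stretches also occur in other genes, among them the pseudogenes *Mrps36-ps1* and *Mrps36-ps2*, so its value is uncertain.

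Members with a counterpart in bacterial ribosomes were compared with those specific to mitochondria, by the unified names of ribosomal proteins. Over all genes tested, 41.0% were lower and 33.3% higher. Of 46 genes with a counterpart, 24 (52.2%) were lower, 9 (19.6%) higher and 13 not called, with a median log2 fold change of -0.14. Of 32 without, 14 (43.8%) were lower, 7 (21.9%) higher and 11 not called, with a median of -0.04. Among Mrps symbols, 11 of 16 genes with a counterpart (68.8%) and 5 of 13 genes without (38.5%) were lower (medians -0.19 and -0.04). The 13 include *Mrps30*, *Mrps18a* and *Mrps36*, which structure does not place in the small subunit and which were not called. Among Mrpl symbols, 13 of 30 (43.3%) and 9 of 19 (47.4%) were lower (medians -0.11 and -0.03). All 4 classes held rises as well, and the differences between them were not tested. The 7 largest falls comprised *Mrpl42* from the mitochondria-specific class and 6 genes with a counterpart.

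Places on the ribosome were looked at in groups written after the values were seen, and they serve as a description only. The groups are not complete lists of the members at each place. Of all genes tested, 74.3% were called, 41.0% as lower and 33.3% as higher. All 5 genes listed for the platform of the small subunit were called, *Mrps6*, *Mrps21*, *Mrps11* and *Mrps15* lower and *Mrps18c* higher. The stalk and its base were mixed, with *Mrpl12* and *Mrpl11* lower (log2 fold changes -0.50 and -0.44), *Mrpl53* and *Mrpl54* higher (0.47 and 0.16) and *Mrpl10* not called (-0.07). The call of *Mrpl54* was lost without sh-NC replicate 1 (adjusted p = 0.0583), sh-NC replicate 3 (0.113) or sh-*Etv5* replicate 3 (0.0869). Of the genes listed for the central protuberance, *Mrpl18*, *Mrpl40*, *Mrpl38* and *Mrpl46* were lower, *Mrpl27* was higher and *Mrpl48* was not called. Around the peptide exit 1 of 7 genes was called, the rise of *Mrpl24*, and *Mrpl17*, *Mrpl22*, *Mrpl23*, *Mrpl44*, *Mrpl45* and *Mrpl47* had log2 fold changes between -0.12 and 0.01. Of these, *Mrpl23* was called lower without sh-*Etv5* replicate 3 (-0.31, adjusted p = 0.00292) and *Mrpl22* without sh-NC replicate 1 (-0.19, adjusted p = 0.00995). Of the genes listed for the head of the small subunit, *Mrps9* was lower (-0.43), *Mrps10* was higher and *Mrps7* and *Mrps14* were not called.

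Promoters of members were read from RefSeq (GRCm38.p6) as the 250 bases before and 50 bases after each start, and 69 of the 78 members had an entry, with 75 windows. Both strands were searched for 4 strings of letters. The ETS string CCGGAAG was found for 26 of 69 members (37.7%), against 22.8% of genes tested and 9.93% of all genes with an entry. It was present for 12 of 34 lower members (35.3%), 6 of 13 higher members (46.2%) and 8 of 22 not called (36.4%). The NRF1 string GCATGCGC was found for 11.6% of members (6.55% of genes tested, 3.05% of all), the YY1 string AAGATGGCG for 11.6% (4.14% and 1.64%) and the TATA string TATAAA for 7.25% (8.0% and 15.7%). The ETS and YY1 strings can overlap by their shared letters AAG, and the NRF1 string can overlap its own reverse complement. The median GC content of the windows was 58.7% for members and 52.7% for all entries, and its part in these shares was not tested. A match is a run of letters, not a measured binding site.

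The windows of the members with the largest falls and rises are shown to set these letters beside the values, all on the plus strand, with each ETS string or its reverse complement in capitals. That of *Mrps6* (chr16:92058086-92058385, log2 fold change -1.31) held none of the 4 strings. The shorter ETS core GGAA does occur in it, on both strands, and GGAA alone was not counted in any window. That of *Mrpl34* (chr8:71464676-71464975, -0.71) and that of *Mrpl27* (chr11:94653541-94653840, 0.55) held 1 ETS string each. That of *Mrpl53* (chr6:83108858-83109157, 0.47) held 2, 1 on each strand.
Mrps6: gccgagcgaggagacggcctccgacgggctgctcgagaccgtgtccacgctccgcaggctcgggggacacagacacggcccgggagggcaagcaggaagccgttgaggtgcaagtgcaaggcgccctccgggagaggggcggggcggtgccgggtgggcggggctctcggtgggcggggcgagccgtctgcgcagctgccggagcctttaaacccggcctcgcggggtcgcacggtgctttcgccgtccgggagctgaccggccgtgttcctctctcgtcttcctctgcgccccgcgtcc
Mrpl34: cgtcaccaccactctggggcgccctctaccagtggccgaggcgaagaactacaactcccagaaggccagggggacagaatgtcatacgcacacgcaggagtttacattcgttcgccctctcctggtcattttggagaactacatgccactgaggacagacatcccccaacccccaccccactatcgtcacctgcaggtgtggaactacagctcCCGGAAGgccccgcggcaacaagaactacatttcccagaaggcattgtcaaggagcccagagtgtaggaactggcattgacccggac
Mrpl53: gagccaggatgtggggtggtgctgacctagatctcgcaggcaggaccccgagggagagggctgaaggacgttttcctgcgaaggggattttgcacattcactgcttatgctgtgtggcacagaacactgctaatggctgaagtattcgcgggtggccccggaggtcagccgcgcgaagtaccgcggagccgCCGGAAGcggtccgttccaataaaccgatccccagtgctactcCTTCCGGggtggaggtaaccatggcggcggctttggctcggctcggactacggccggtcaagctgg
Mrpl27: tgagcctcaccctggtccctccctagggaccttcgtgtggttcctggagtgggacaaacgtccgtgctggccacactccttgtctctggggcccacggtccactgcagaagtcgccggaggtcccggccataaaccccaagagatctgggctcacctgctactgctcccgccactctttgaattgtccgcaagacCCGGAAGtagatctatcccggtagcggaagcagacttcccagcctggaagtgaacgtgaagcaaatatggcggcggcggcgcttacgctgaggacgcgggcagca

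Neighbouring genes bear on how RPKM values can be read, since the use of strand in counting is not given in the sources used here. Exons of 33 members overlap exons of another annotated gene, a protein-coding gene for 23 of them. Of the 45 members without such an overlap, 22 were lower, 8 higher and 15 not called, with a median log2 fold change of -0.12. Over all genes tested, 41.0% were lower and 33.3% higher, with a median of -0.05. Among the members with the largest changes, *Mrpl27* shares 75 exonic bases on opposite strands with *Eme1*, a DNA repair gene at 14.2 ± 0.383 RPKM in sh-NC and 13.0 ± 0.524 RPKM in sh-*Etv5* (log2 fold change -0.12). *Mrpl36* shares 30 with *Ndufs6*, which encodes a subunit of complex I (log2 fold change -0.34). *Mrpl18* shares 141 (10.1% of its exons) with the opposite-strand gene *Tcp1*. That gene was at 168 ± 2.16 RPKM in sh-NC and 144 ± 7.22 RPKM in sh-*Etv5* (log2 fold change -0.22). *Mrpl12* shares 13.1% of its exons with the opposite-strand gene *Gm16755*, which had no row in the table. The sizes of the falls of *Mrpl18* and *Mrpl12* are therefore uncertain. The exons of *Mrps34* are covered by those of *Mapk8ip3* (63.4%, log2 fold change 0.42) and *Nme3* (37.0%, -0.87), and *Mrps34* itself was not called (-0.07). Its value is therefore uncertain, as are those of *Mrps25* (69.8% shared with *Nr2c2*) and *Mrpl53*. Counted by sequence on either strand, 11 members share over 20% of their 50-base stretches with other annotated genes and 25 share none. This count includes exons that overlap by position, such as those of *Mrpl53* and *Gm42688*, so it is not a separate limit. *Mrpl27* shares 26.9%, with *Gm6304* and *Eme1*, *Mrpl24* shares 23.3% and *Mrpl19* shares 37.0%, so the sizes of these rises are uncertain. The same holds for the rises of *Mrps18b* (30.2%) and *Mrps18c* (22.9%). *Eme1*, *Ndufs6*, *Slc5a3*, *Tcp1*, *Mrps34*, *Mrps25* and their partners were named after their values were seen.

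Other genes of mitochondrial translation were described by lists. Of all genes tested, 41.0% were lower and 33.3% higher. Subunits whose symbols do not follow the Mrp pattern numbered 5 in the table, of which 3 were lower (60.0%) and 2 not called (median log2 fold change -0.22). *Gadd45gip1*, a large-subunit gene, was at 30.1 ± 0.475 RPKM in sh-NC and at 22.2 ± 0.923 RPKM in sh-*Etv5* (SD, n = 3, log2 fold change -0.42, adjusted p = 4.1e-06). The small-subunit genes *Ptcd3* and *Aurkaip1* were lower by -0.23 and -0.22 on the log2 scale, with no overlap between groups. Of 26 genes for ribosome assembly and ribosomal RNA modification, 11 (42.3%) were lower and 7 (26.9%) higher (median -0.09). The largest called changes were those of *Tfb1m*, a methyltransferase for the small ribosomal RNA (8.09 ± 0.574 to 5.08 ± 0.602 RPKM, log2 fold change -0.58), *Fastkd2*, an RNA-binding protein (-0.57), and *Noa1*, a GTPase (-0.56). Translation factors were mixed, with 6 of 14 (42.9%) lower and 5 (35.7%) higher (median -0.10). *Oxa1l*, which inserts new chains into the inner membrane, was lower (-0.38), and *Mtrf1*, of the release factor family, was higher (0.34). *Guf1*, a GTPase that acts on the ribosome, was lower (-0.31, adjusted p = 0.012), a call that was lost without sh-*Etv5* replicate 1 (-0.23, adjusted p = 0.0513) and without a filter on low values (adjusted p = 0.0765).

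Enzymes that charge mitochondrial transfer RNAs had the lowest median of the lists of mitochondrial genes. Of 20 tested, 14 (70.0%) were lower, 2 (10.0%) higher and 4 not called, with a median log2 fold change of -0.32. Of all genes tested, 41.0% were lower, 33.3% higher and 74.3% called in either direction. *Sars2*, for serine, was at 11.1 ± 0.338 RPKM in sh-NC and 6.10 ± 0.483 RPKM in sh-*Etv5* (log2 fold change -0.78, adjusted p = 6.03e-07). *Yars2*, for tyrosine, and *Cars2*, for cysteine, were lower by -0.72 and -0.71. Of 17 genes for transcription and upkeep of the mitochondrial genome, 7 (41.2%) were lower, 0 higher and 10 not called (median -0.11). Their share of falls was near that of all genes, and a smaller share was called. The DNA polymerase gene *Polg* was at -0.62, the transcription factor gene *Tfam* at -0.43 and the helicase gene *Twnk* at -0.38. Of 11 regulators of mitochondrial biogenesis, 9 (81.8%) were lower and 2 (18.2%) higher. *Myc*, a growth regulator, rose from 0.341 ± 0.039 to 12 ± 0.194 RPKM (log2 fold change 3.27). *Mycn*, also in this list and chosen after its values were seen, stood far higher and fell from 370 ± 6.43 to 205 ± 9.74 RPKM (-0.85). *Esrra*, a nuclear receptor, rose from 19.7 ± 0.333 to 36.8 ± 0.565 RPKM (0.87), and *Gabpb2*, a partner subunit of the ETS factor GABP, fell from 16.8 ± 0.658 to 8.37 ± 0.559 RPKM (-0.92). The messages translated by the mitochondrial ribosome were not analysed here.

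A pair of comparison lists gave the same quantities for the ribosome of the cytosol and for the complexes that take up the products of mitochondrial translation. Of 80 cytosolic ribosomal protein genes tested (4 more were below the filter), 43 were lower, 7 higher and 30 not called, with a median log2 fold change of -0.14. Their summed level fell by 7.24%, and the largest called changes were those of *Rpl37a* (-0.67), *Rpl22l1* (-0.56) and *Rpl7l1* (-0.55). Of 77 nuclear genes for the respiratory chain and ATP synthase, 49 were lower, 6 higher and 22 not called, with a median of -0.21. Their summed level fell by 13.7%, with *Uqcrh* and *Uqcr11* of complex III at -0.84 and -0.68 and *Atp5j2* of ATP synthase at -0.72. The share of lower genes was 48.7% for the Mrp genes, 53.8% for cytosolic ribosomal proteins, 63.6% for the respiratory chain list and 41.0% for all genes. The differences between these shares were not tested. Sequence shared with other genes was checked for the Mrp genes only, so the levels of both comparison lists carry that limit.

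**Figure D5:**
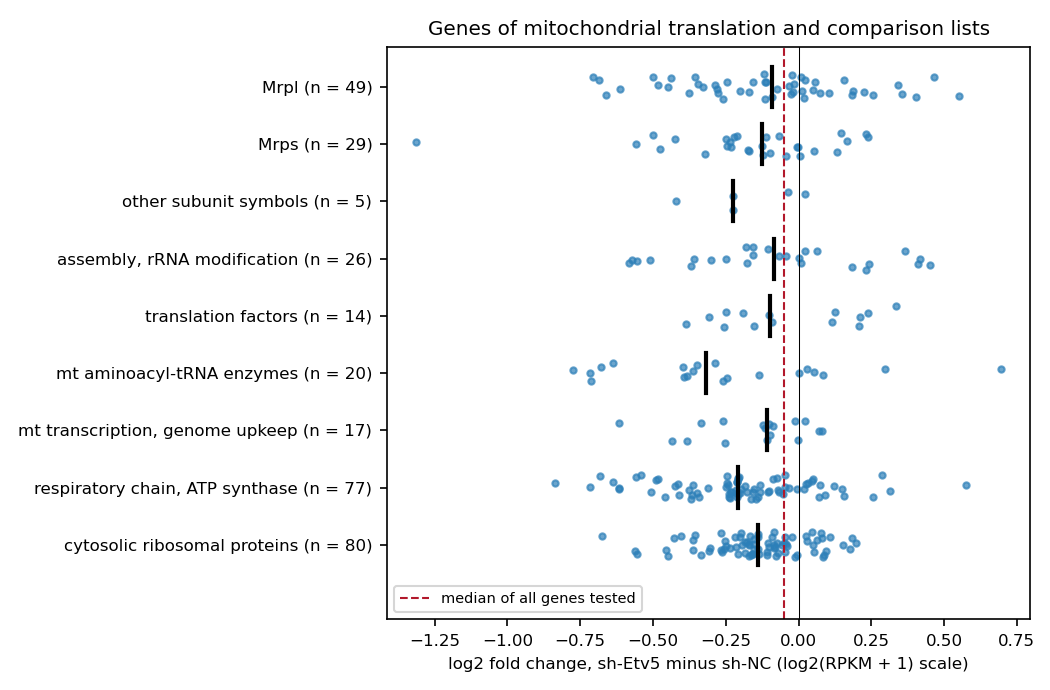
Log2 fold change (x axis, sh-*Etv5* minus sh-NC, log2(RPKM + 1) scale) of each tested gene of the Mrpl and Mrps groups and of 7 related lists, with black bars for the median of each list and a dashed line for the median of all genes tested (-0.05). The medians of all lists lie left of the dashed line, from -0.09 for Mrpl and for assembly factors to -0.32 for the transfer RNA enzymes.

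Markers were read in the same libraries. Of 8 macrophage markers 7 were tested, and 4 were lower, 2 higher and 1 not called. *Csf1r*, the receptor for macrophage colony-stimulating factor, fell from 428 ± 4.56 to 244 ± 6.72 RPKM (log2 fold change -0.81), whereas *Itgam* (33.8 ± 0.746 to 127 ± 7.21 RPKM, 1.88) and *Adgre1* (2.60 ± 0.119 to 11.3 ± 0.757 RPKM, 1.77) rose. The list summed to between 3715 and 3803 RPKM in sh-NC and between 2686 and 2769 RPKM in sh-*Etv5*. Markers of T cells, B cells and fibroblasts stayed under 0.4 RPKM in every library. Of 5 granulocyte markers, *S100a8* rose from 0.306 ± 0.184 to 17.1 ± 2.29 RPKM, while *S100a9*, *Elane* and *Ly6g* were listed at 0 in all libraries. The osteoclast list summed to between 12.8 and 13.9 RPKM in sh-NC and between 6.12 and 6.54 RPKM in sh-*Etv5*, with *Dcstamp* lower (-1.45) and *Acp5* higher (1.18). The part of these shifts in the changes of the Mrp genes was not tested.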

How the data were processed

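The authors deposited 1 table with an RPKM value per gene symbol for each of the 6 libraries, without log transformation, and per the labels the build was mm10. Aligner, counting and annotation are not given in the sources used here. Groups came from the sample titles, and 0 columns were without a sample. Genes that reached 1 RPKM in 3 or more libraries were compared on log2(RPKM + 1) in R 4.3.3 with the package limma 3.58.1 (moderated by eBayes with trend, two-sided, without covariates, Benjamini-Hochberg adjustment over 10738 genes). With 3 libraries a group, an exact permutation test has a smallest p of 0.1, and none was run. Tested on simulated data for this comparison (10738 genes), the fit recovered 83% of 100 genes changed by 0.5 on the log2 scale and 99% of 100 changed by 1, with 7 unchanged genes called. The simulation took its spread from the sh-NC libraries alone and changed 200 genes, whereas 74.3% of genes were called in the data. Its shares therefore hold for that setting only. Summaries used Python 3.11.15, NumPy 2.4.6 and pandas 2.3.3, with gene positions from GENCODE release M21 (GRCm38), which matched all 78 members by symbol.

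Members and lists were chosen with earlier results of these data known. Named were *Etv5*, the 10 largest called falls and rises among members, the 2 most abundant members of each subunit, members with a role of their own, and the 3 largest called changes of each other list. Alternatives were other pseudocounts, filters, scalings and thresholds, no trend, a replicate block, overlapping genes left out and each library left out. A rescaling by genes outside the top 10 of any library was chosen after seeing the data.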

Additional observations from a re-analysis of the deposited data

How the results depend on the processing

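Pseudocounts of 0.1 and 0.01, a mean RPKM of at least 5, a fit without trend and the rescaling by genes outside the top 10 kept every count of calls within 1.5 times. Rescaled to the same sum, 10 members and 2 Mrps genes were higher, the medians were -0.15 (Mrpl) and -0.18 (Mrps), and the sum ratios of sh-*Etv5* to sh-NC were 0.871 (Mrpl) and 0.809 (Mrps). This rescaling moved the median of all genes by -0.054. Quantile normalization gave medians of -0.036 (Mrpl) and -0.089 (Mrps). At an adjusted p under 0.01, 10 members and 2 Mrps genes were higher. With a log2 fold change of at least 0.5 also required, 1 member (1 Mrpl, 0 Mrps) was higher and 7 (5 Mrpl, 2 Mrps) were lower. With no filter 3 Mrps genes were higher, from 17831 genes tested. Without genes whose exons overlap another gene 22 members were lower, of 45 left. Leaving out each library in turn gave 3 to 5 higher Mrps genes and a Mrps median between -0.159 (without sh-*Etv5* replicate 1) and -0.095 (without sh-*Etv5* replicate 2).

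Changes near 0 turned sign without a call. *Mrpl58* was at -0.035 when rescaled to the same sum and between -0.017 and 0.041 without a library. *Mrps18a* was at 0.049 and *Mrps30* at 0.038 under quantile normalization, and between -0.040 and 0.020 and between -0.067 and 0.062 without a library. *Mrps36* ranged from -0.24 to 0.085 without a library.

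Libraries with the same replicate number did not deviate together (correlations 0.074, -0.071 and -0.035, with 2 of 6 libraries closest to their own number), so the numbers do not pair them. With a replicate block, 14 members were higher and 36 lower, all of them among the 16 and 38. Of 375 values of 25 named members under the alternatives, 352 kept direction and call. The unknown read depth limits what can be said of the small changes.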
